A study of Homo sapiens with 20 samples.

Results

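Pseudouridine signal in mitochondrial RNA was compared between NME6 knockout and control K562 cells, 4 CMC-treated libraries each. K562 is a human chronic myelogenous leukaemia line. The comparison took every mitochondrial position whose mean level over these 8 libraries was 1 point or more, which gave 190 of 16570 listed positions. Of these, 174 lay in 33 of the 37 mitochondrial genes and 16 lay outside genes; the tRNA genes TRNQ, TRNW, TRNY and TRNT held none.

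Pseudouridine is an isomer of uridine that synthases make in finished RNA chains. The carbodiimide CMC stays attached to pseudouridine, where it hinders reverse transcriptase and leaves a trace in the reads. In mitochondria the synthases RPUSD4, RPUSD3 and TRUB2 associate with the protein RCC1L. RPUSD4 acts on the 16S rRNA of the large ribosomal subunit, and RPUSD3 and TRUB2 have been reported to act on mRNAs. NME6, which belongs to the nucleoside diphosphate kinases, also associates with RCC1L, and the knockout asks whether the modification profile depends on it.

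All cells carried the K562 background, and the control was wildtype with a non-targeting sgRNA. The knockout cells were labelled NME6 KO. For setting beside them there were 3 libraries of NME6 KO cells given WT-NME6 cDNA (rescued cells) and 3 of RPUSD4 knockdown cells. Only their levels are given, because they share the knockout or the control libraries with any comparison. They also entered the estimate of spread in the limma test. Every library analysed was treated with 0.5 M CMC, and RNA came from mitochondria isolated by fractionation. The labels say neither whether the knockout is 1 clone nor whether replicates were separate cultures, and p-values therefore measure library-to-library spread, which may be technical. The NME6 transcript is nuclear and was not analysed here, so the knockout could not be checked from it.

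A level here is the deposited signed difference between CMC-treated and untreated RNA at a position. Its unit was not stated and was taken to be percentage points. Depth, base and strand were not given with the levels, so a position need not be a uridine and an exact 0 may mean that few or no reads covered it. The 12 pairs of libraries within a group shared 70 to 179 identical negative levels and the 16 pairs between the groups shared 0, so 1 untreated profile appears to stand behind each group. A higher untreated level in a group and a lower CMC level cannot be told apart. Positions are numbered as listed and taken as GRCh38 mitochondrial coordinates; the list runs from 2 to 16571, so a shift of a base cannot be told apart from these numbers. The base number within a gene counts from its 5′ end.

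Replicate 1 stood apart in both groups. Mean level over all positions was 0.0851 points in control replicate 1 and 0.0850 in knockout replicate 1, against 0.156 to 0.159 in the other control libraries and 0.158 to 0.166 in the other knockout libraries. The share of positions listed at 0 was 58.9% in control replicate 1 and between 32.4% and 34.2% in the other 3. It was 68.2% in knockout replicate 1 and between 42.7% and 53.7% in the other 3. Results that rest on replicate 1 are therefore given with and without it.

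Across the 190 positions the knockout mean was higher at 129 and lower at 61 (67.9% and 32.1%), with a median difference of 0.187 points. Most levels were low: 159 positions had a mean under 2 points, 25 had 2 to 5 and 6 had 5 or more. The excess of higher positions moved with replicate 1, which had a low mean level in both groups. Without control replicate 1 alone, 97 were higher and 89 lower, and without knockout replicate 1 alone, 138 and 52. With replicate 1 of both groups left out, 121 were higher and 65 lower. Among the 2472 positions above 0 in all 8 libraries, at any level, 58% were higher in the knockout. The share among the 190 is read against that background. A position whose mean in either group was under 1 point was chosen only through the other group, which fixed its direction.

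**Figure D1:**
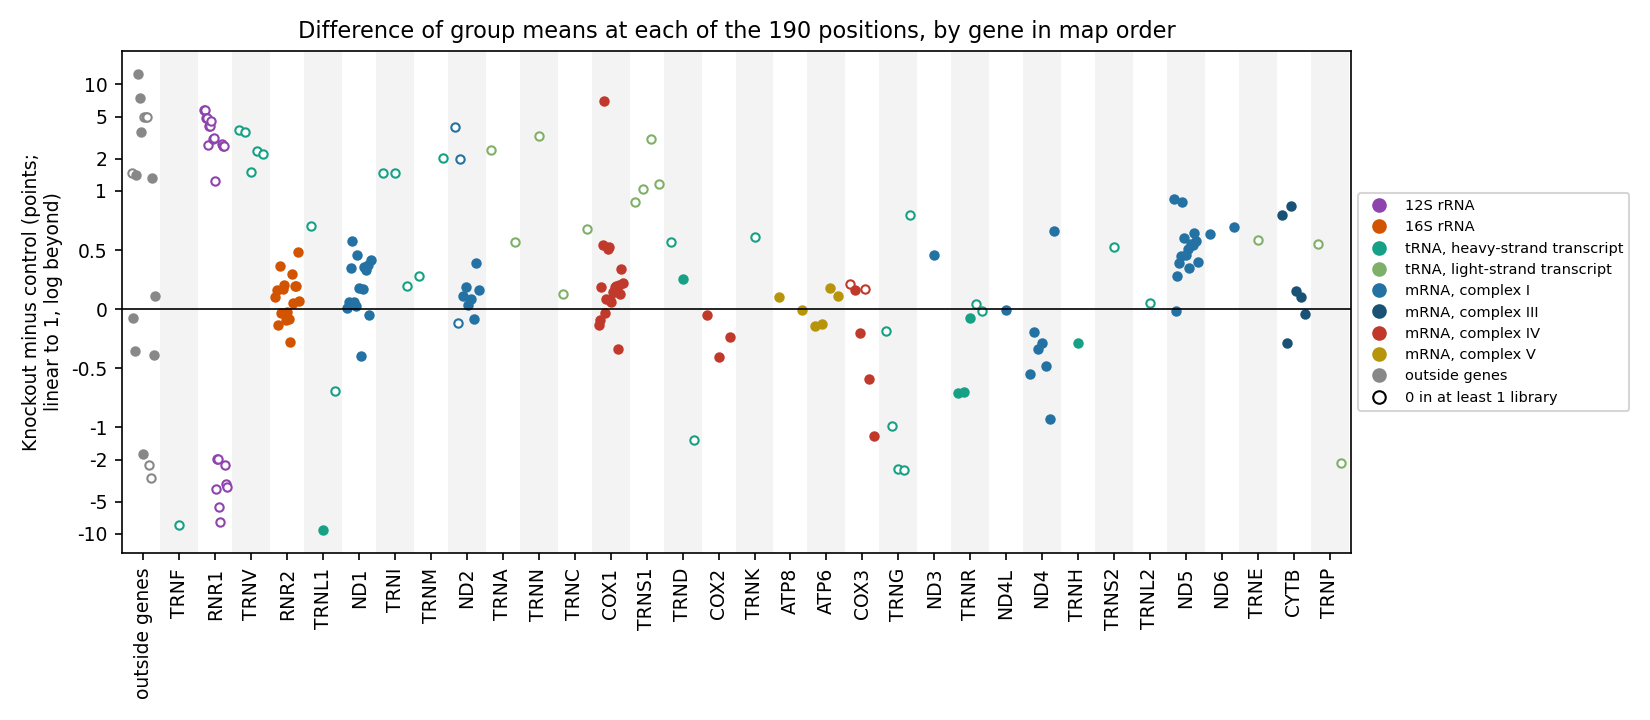
Knockout minus control difference of group means, in points, at each of the 190 positions, with genes along the horizontal axis in map order and positions in map order within each gene; the vertical axis is linear up to 1 point and logarithmic beyond, and open circles mark positions listed at 0 in at least 1 of the 8 libraries. ND5 has 14 of 15 positions above 0 and ND4 has 6 of 7 below, while the widest differences in RNR1 and in most tRNA genes are open circles.

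The limma test with Benjamini-Hochberg adjustment over the 190 positions called 0 of them (0%). At an unadjusted p under 0.05 there were 12 higher (6.32%) and 2 lower positions (1.05%). The spread in this test came from all 14 CMC libraries. With only the 8 compared libraries in the limma fit, 4 higher and 2 lower positions had an unadjusted p under 0.05. The smallest limma Benjamini-Hochberg adjusted p was then 0.234, against 0.0833 in the fit as reported. The groups did not overlap at 6 higher (3.16%) and 2 lower positions (1.05%). Over all 2472 positions above 0 in every library, the corresponding shares without overlap were 2.14% higher and 1.33% lower. The smallest exact two-sided permutation p for 4 against 4 libraries, 0.0286, was reached at those 8 positions, and after Benjamini-Hochberg adjustment the smallest was 0.679. The differences given here are therefore measured gaps that did not pass the adjusted test.

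Among positions inside genes that were above 0 in all 8 libraries, the 3 highest stood differently between the groups: the 16S rRNA position overlapped, the tRNA-Leu(UUR) position lower and the COX1 position higher in the knockout. The 16S rRNA position is 3067, base 1397 of RNR2 (1671 to 3229), the known RPUSD4 target. It read 14.1, 14.9, 13.8 and 15.8 points in control replicates 1 to 4 and 17.5, 15.4, 14.3 and 13.3 points in the knockout. The groups overlapped, with knockout libraries both above and below all control libraries. The difference was 0.487 points with an SE of 0.875 (95% limits -1.43 and 2.40) and a Benjamini-Hochberg adjusted limma p of 0.866. The sign turned to -0.310 points without knockout replicate 1, and the interval still allows a loss of 1.43 points from a control mean of 14.7 ± 0.911 (SD, n = 4). Rescued cells read 22.8 ± 0.599 points (n = 3) at this base and RPUSD4 knockdown cells 9.59 ± 0.549 (n = 3).

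In tRNA-Leu(UUR), which reads UUA and UUG codons, position 3258 is base 29 of TRNL1 (3230 to 3304). It corresponds to conventional tRNA position 27, in the anticodon stem, a site the synthase PUS1 is known to modify. Control replicates read 15.3, 24.8, 19.7 and 19.0 points and knockout replicates 10.5, 15.4, 6.93 and 8.93 points. The groups overlapped only through control replicate 1, which lay just under knockout replicate 2. The knockout mean of 10.4 ± 3.599 points was 53.0% of the control mean of 19.7 ± 3.94 (SD, n = 4 each). The difference was -9.25 points with an SE of 2.33 (95% limits -14.4 and -4.16), a Benjamini-Hochberg adjusted limma p of 0.191 and an exact permutation p of 0.0571. It did pass in 2 of 23 alternatives, 1 of them with only positions with a mean of 2 or more tested (limma, Benjamini-Hochberg adjusted p = 0.0408). That limma adjusted p ranged from 0.0385 to 0.614 over the alternatives. The difference lay between -10.9 and -7.54 points under the alternatives that kept this base as a value of its own in points. Averaged with its neighbour 3257 it was -4.28 points. Rescued cells read 19.2 ± 2.47 points and RPUSD4 knockdown cells 21.8 ± 3.53. In replicates 2 to 4, 50.1% to 54.1% of all tRNA positions were listed at 0 in control and 79.1% to 85.3% in the knockout; the part of this in the difference at 3258 was not tested.

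Position 6293, base 390 of COX1 (5904 to 7445), lies in the coding sequence of subunit 1 of cytochrome c oxidase. Control replicates read 10.8, 7.65, 9.56 and 8.01 points, and knockout replicates 20.6, 14.9, 14.5 and 14.2. The lowest knockout library was thus above the highest control library, and knockout replicate 1 stood highest. The knockout mean was 178% of the control mean. The difference was 7.05 points with an SE of 2.90 (95% limits 0.702 and 13.4), a Benjamini-Hochberg adjusted limma p of 0.565 and an exact permutation p of 0.0286. It passed in 1 of 23 alternatives, when only positions with a mean of 2 or more were tested (limma, Benjamini-Hochberg adjusted p = 0.0408). The difference lay between 5.53 and 8.14 points under the alternatives that kept this base as a value of its own in points. Averaged with its neighbours 6291 and 6292 it was 2.59 points. The rescued cells read 7.42 ± 3.12 points and the RPUSD4 knockdown cells 7.12 ± 0.488.

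**Figure D2:**
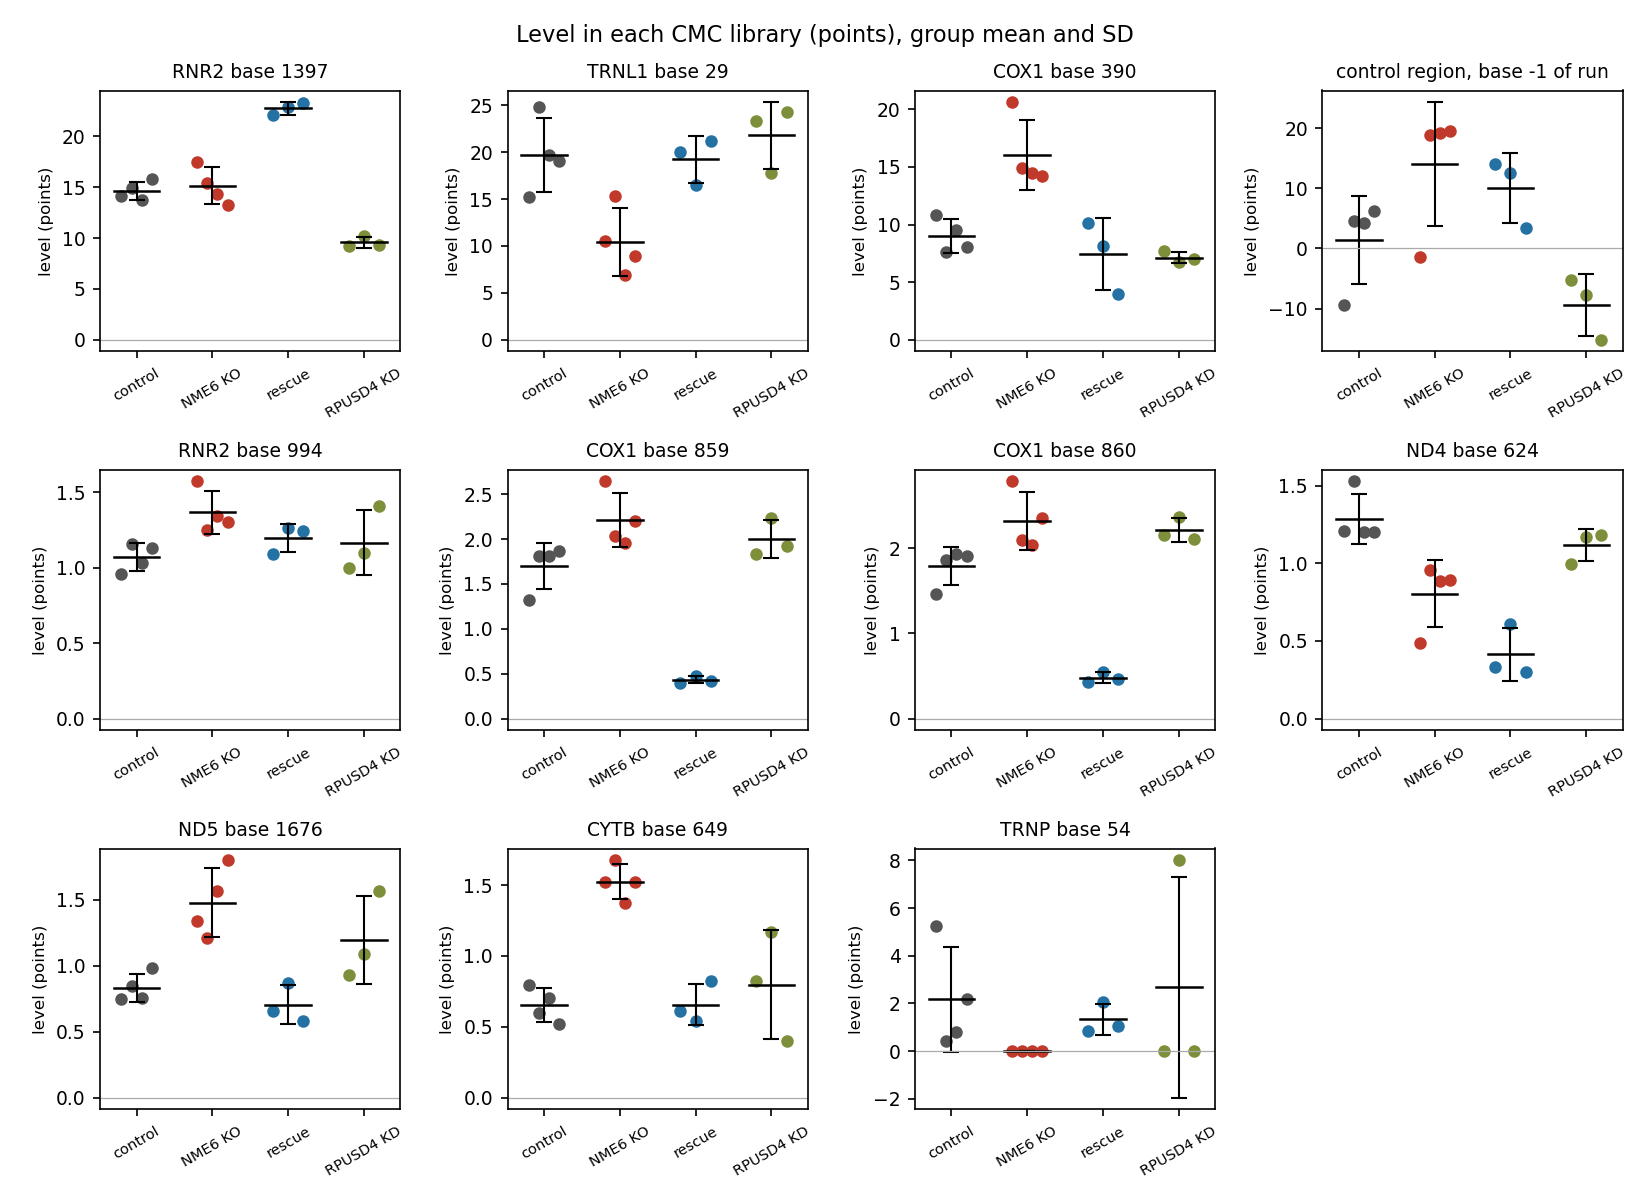
Level in points in each CMC library (dots), with group mean (bar) and SD (whiskers), for control (n = 4), NME6 knockout (n = 4), rescued (n = 3) and RPUSD4 knockdown cells (n = 3), at the 3 high positions inside genes, at the control region position with the widest difference, and at the other 7 positions without overlap between knockout and control; vertical axes differ between panels. COX1 base 390 and CYTB base 649 read higher in all 4 knockout libraries than in any control library, and RNR2 base 1397 overlaps.

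The signal at these bases was narrow. At COX1 the base before the high one read 1.66 ± 0.329 points in control and 2.20 ± 0.780 in the knockout, and the base after it 0.187 and 0.218. In the 16S rRNA the base before read 0.823 points in control and 0.874 in the knockout, and the base after 0.0638 and 0.0567. The gap between the groups thus lay mainly at the high base itself in COX1. Levels 1 base before the tRNA-Leu(UUR) position were 0, 0.499, 0.582 and 1.66 points in control and 5.26, 0.282, 0 and 0 in the knockout, where replicate 1 alone was high.

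**Figure D3:**
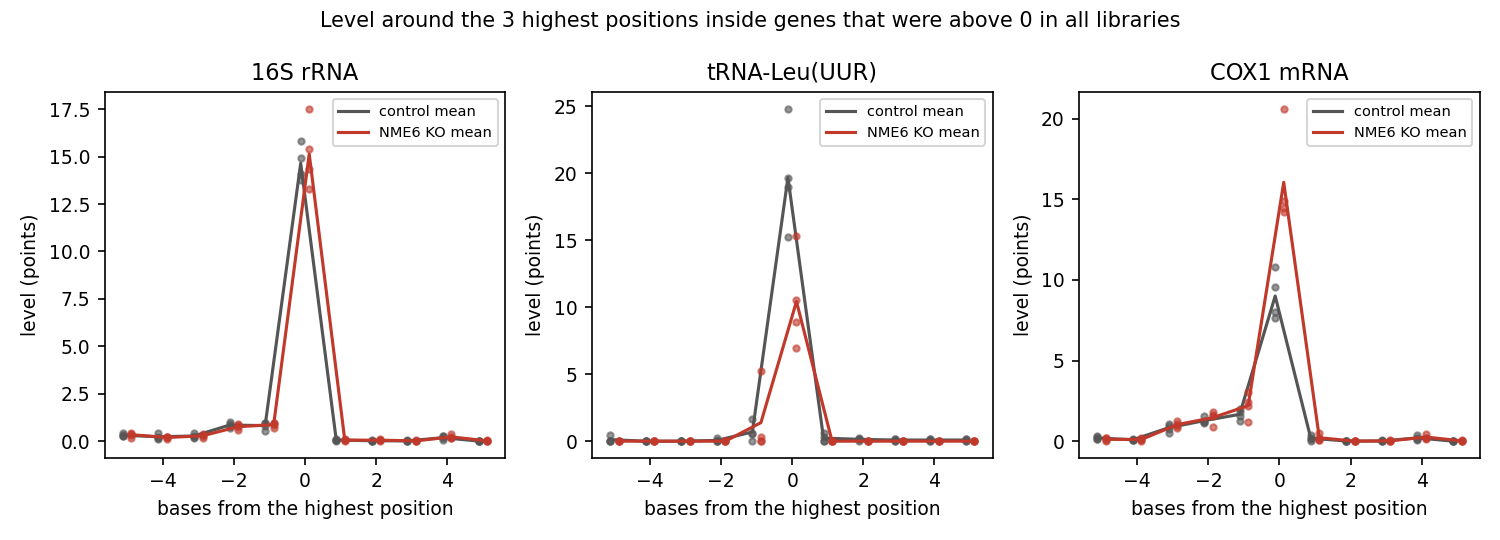
Level in points from 5 bases before to 5 bases after the highest position of the 16S rRNA, tRNA-Leu(UUR) and the COX1 mRNA; dots are single libraries (4 control, 4 NME6 knockout, set slightly apart sideways), lines are group means. The peaks stand on 1 base, with a low shoulder on the bases before it, and the knockout peak is lower in tRNA-Leu(UUR) and higher in COX1.

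The 3 levels were also set against each other within each library. A permutation test of these ratios was computed, but they were chosen after the values were seen, so its p is not given. Positions of different RNAs need not have the same depth, so such a ratio does not remove differences in depth. The COX1 level over the 16S rRNA level was 0.765, 0.513, 0.694 and 0.506 in control libraries and 1.18, 0.968, 1.01 and 1.07 in knockout libraries. The tRNA-Leu(UUR) level over the 16S rRNA level was 1.08, 1.67, 1.43 and 1.203 in control and 0.600, 0.998, 0.483 and 0.672 in the knockout. On both ratios the groups did not overlap. Rescued cells had mean ratios of 0.328 ± 0.145 for COX1 and 0.846 ± 0.111 for the tRNA.

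The mRNAs held 92 of the 190 positions, 0.811 per 100 positions of mRNA, and 65 were higher and 27 lower in the knockout (median difference 0.165 points). Without control replicate 1, 45 were higher and 47 lower; without replicate 1 of both groups, 62 and 30. None passed the adjusted limma test. Subunits of complex I, the NADH dehydrogenase that feeds electrons into the respiratory chain, accounted for 51 of them, 39 higher and 12 lower (median difference 0.348 points). Leaving out 1 library at a time gave between 32 and 42 higher positions, the fewest without control replicate 1.

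The count of each direction differed between the genes of complex I, a difference that was not tested. ND5, a proton-pumping subunit, had 14 higher and 1 lower of 15 positions, with a median difference of 0.509 points, and 14 or 15 were higher whichever library was left out. Its mean over the 15 positions was 0.657, 1.06, 1.12 and 1.22 points in control and 1.15, 1.54, 1.545 and 1.85 in the knockout. Knockout replicate 1 lay among the control libraries, which themselves had replicate 1 lowest, and the other knockout libraries lay above them all. The same lean was weaker outside the 190: of 339 further ND5 positions above 0 in every library, 66.4% were higher, against 57.5% of all 2364 such positions. That lean was not particular to ND5. The share was 79.4% in ND4L, 74.4% in ATP8, 72.4% in COX2 and 67.0% in CYTB, and lower than in ND5 in the other mRNAs.

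The ND5 position without overlap was 14012, base 1676 of the gene (12337 to 14148). It read 0.747, 0.845, 0.753 and 0.978 points in control and 1.34, 1.205, 1.57 and 1.797 in the knockout. Every control library lay under 1 point, so the position was chosen only through knockout libraries and its direction was fixed by that choice. The knockout mean was 178% of control, a difference of 0.646 points with an SE of 0.184 (95% limits 0.243 and 1.05) and a Benjamini-Hochberg adjusted limma p of 0.291. Rescued cells read 0.702 ± 0.148 points there and RPUSD4 knockdown cells 1.19 ± 0.330. ND5 position 13302 was 0.601 points higher in the knockout at an unadjusted p of 0.0352, and its groups overlapped. The highest ND5 position, 14075, read 1.32, 1.85, 2.14 and 2.43 points in control and 0.684, 3.15, 2.40 and 3.82 in the knockout, so replicate 1 and the other 3 libraries went opposite ways.

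ND6, the complex I subunit encoded by the light-strand transcript, had 2 positions, 14191 and 14504, and both were higher in the knockout. Their mean was 0.834, 0.890, 0.910 and 0.892 points in control and 1.37, 1.67, 1.82 and 1.33 in the knockout. All 4 knockout libraries lay above the control libraries. Position by position the groups overlapped, with 14504 at 1.35, 0.9999, 1.06 and 0.736 points in control and 2.20, 1.69, 1.95 and 1.07 in the knockout. At 14191 the control mean lay under 1 point, so it was chosen only through knockout libraries. Because ND5 and ND6 abut on opposite strands and strand was not given, reads from the complementary transcripts over each gene could not be separated.

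ND4, also a proton-pumping subunit, ran the other way, with 1 higher and 6 lower of 7 positions and a median difference of -0.336 points. It had 5 or 6 lower positions whichever library was left out. Position 11383, base 624 of ND4 (10760 to 12137), was 1 of the 2 lower positions without overlap. Control libraries read 1.21, 1.53, 1.2005 and 1.1997 points there and knockout libraries 0.486, 0.954, 0.885 and 0.893. Every knockout library lay under 1 point, so the position was chosen only through control libraries and its direction was fixed by that choice. The knockout mean was 62.7% of control, a difference of -0.479 points with an SE of 0.162 (95% limits -0.834 and -0.124) and a Benjamini-Hochberg adjusted limma p of 0.565. Rescued cells read 0.414 ± 0.171 points at this base, below every control library, and RPUSD4 knockdown cells 1.12 ± 0.104.

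Single ND4 positions leaned on single libraries or ran against the rest. Position 11827 read 0.328, 1.67, 2.27 and 2.37 points in control and 0.414, 0.975, 0.681 and 0.861 in the knockout, where control replicate 1 alone lay low. Position 11929, the only higher one, read 0.480, 0.835, 0.836 and 1.36 points in control and 1.04, 1.79, 2.07 and 1.26 in the knockout (unadjusted p = 0.0408). Outside the 190, 58.9% of 175 ND4 positions above 0 in every library were higher in the knockout.

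ND1 had 13 higher and 2 lower positions (9 and 6 without control replicate 1) and ND2 had 8 and 2 (6 and 4), while ND3 and ND4L held 1 each. In ND1, position 3470 read 1.06, 1.13, 1.003 and 0.698 points in control and 2.15, 1.497, 1.52 and 1.01 in the knockout. Position 3631 read 0.734, 0.850, 0.604 and 0.944 in control and 1.56, 0.925, 1.13 and 1.35 in the knockout. Each pair overlapped through 1 knockout library, and the differences were 0.573 and 0.457 points. Control means at both, and at several other higher ND1 positions, lay under 1 point. These were chosen only through knockout libraries, which fixed their direction. The highest ND2 position that was above 0 in all libraries, 5247, showed little gap between the groups: 1.71, 2.14, 2.30 and 2.27 points in control and 0.862, 2.56, 2.96 and 1.69 in the knockout.

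In complex III the only mitochondrially encoded subunit is cytochrome b, from CYTB (14747 to 15887), with 4 higher and 2 lower of 6 positions (3 and 3 without control replicate 1, 2 and 4 without knockout replicate 2). Position 15395, base 649, had the smallest p of all 190. Control libraries read 0.798, 0.599, 0.7002 and 0.518 points and knockout libraries 1.52, 1.68, 1.37 and 1.52. The groups were far apart for their spread, at 0.654 ± 0.122 and 1.52 ± 0.124 points (SD, n = 4 each), so the knockout stood at 233% of control. With a control mean under 1 point, this position was chosen only through knockout libraries, so its direction was fixed by that choice. The difference of 0.870 points (SE 0.178, 95% interval 0.479 to 1.26) missed the threshold at a limma Benjamini-Hochberg adjusted p of 0.0833. That p ranged from 0.0385 to 0.508 over the alternatives. The rescued cells read 0.657 ± 0.146 points at this base, and the RPUSD4 knockdown cells 0.798 ± 0.386. Rescued libraries were low over the 190 positions as a whole. The other 5 CYTB positions overlapped between the groups.

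Complex IV, cytochrome c oxidase, had 29 positions, 19 higher and 10 lower (median difference 0.142 points). Without control replicate 1 this turned to 9 higher and 20 lower; without replicate 1 of both groups it was 17 and 12. COX1 supplied 20 of them, 16 higher and 4 lower, and without control replicate 1 it had 8 higher and 12 lower. Besides the high base at 6293, the adjacent positions 6762 and 6763 did not overlap between the groups. Position 6762 read 1.32, 1.81, 1.81 and 1.86 points in control and 2.64, 2.04, 1.96 and 2.21 in the knockout. The difference was 0.511 points (SE 0.243; limma, Benjamini-Hochberg adjusted p = 0.565), of which replicate 1 gave the widest share, since it was lowest in control and highest in the knockout. Its neighbour 6763 differed by 0.527 points, and being adjacent is no separate evidence. Rescued cells read 0.433 and 0.480 points at these bases, below every control and knockout library.

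Among the positions compared, the other complex IV mRNAs leaned lower or stood level. All 3 positions of COX2, which carries the copper centre that takes electrons from cytochrome c, were lower in the knockout. Of 58 further COX2 positions above 0 in every library, 72.4% were higher in the knockout, against 57.5% of all such positions. A lower level was thus not general in COX2. At the highest of the 3, 7710, control libraries read 0.856, 2.11, 1.71 and 1.76 points and knockout libraries 1.05, 1.17, 1.35 and 1.25. Without replicate 1 these means were 1.86 and 1.26 points and the groups did not overlap. COX3 had 3 higher and 3 lower positions, and 1 higher and 5 lower without replicate 1 of both groups. Its highest, 9478, was level at 2.62, 2.58, 2.68 and 3.14 points in control and 2.09, 2.55, 2.47 and 3.13 in the knockout. COX3 position 9795 read 0.589, 2.70, 3.27 and 3.10 points in control and -0.133, 1.28, 2.38 and 1.30 in the knockout. Complex V, the ATP synthase, had 3 higher and 3 lower positions in ATP6 and ATP8, all within 0.176 points of the control mean. It had 1 higher and 5 lower without control replicate 1 and 6 higher and 0 lower without knockout replicate 1.

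The 16S rRNA had 17 positions, all with a value in every library, 11 higher and 6 lower (median difference 0.101 points). Apart from base 1397 they had control means between 0.929 and 1.68 points. Without control replicate 1, 4 were higher and 13 lower, without knockout replicate 2, 8 and 9, and without replicate 1 of both groups 11 and 6. Position 2664, base 994, was the only one without overlap, at 0.955, 1.16, 1.03 and 1.13 points in control and 1.57, 1.25, 1.34 and 1.30 in the knockout. Its difference was 0.298 points (SE 0.153; limma, Benjamini-Hochberg adjusted p = 0.565). Of the 638 further 16S positions above 0 in every library, 49.7% were higher in the knockout.

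The 12S rRNA, which scaffolds the small ribosomal subunit, could hardly be read. Between 97.3% and 99.7% of its positions were listed at 0 in each library. Its 22 positions (14 higher, 8 lower) had no value other than 0 in every library, and 16 of them had one in 1 library only. Position 1335, the highest, read 22.2, 0, 0 and 8.45 points in control and 0 in all 4 knockout libraries. Over all genes, 20 positions rested on 1 library, 14 on a knockout and 6 on a control library; TRNF position 588 (tRNA-Phe), at 33.3 points in control replicate 1 and 0 elsewhere, was the highest of them. Among the 120 positions with a value other than 0 in all 8 libraries, 79 were higher and 41 lower, with a median difference of 0.144 points.

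The tRNA genes held 43 positions, 2.86 per 100 positions of tRNA, with 29 higher and 14 lower. Only 6 of the 43 had a value other than 0 in all 8 libraries, 1 higher and 5 lower. The tRNAs of the heavy-strand transcript had 18 higher and 13 lower positions, and those of the light-strand transcript 11 higher and 1 lower. Without replicate 1 of both groups the light-strand count was 8 higher and 4 lower and the heavy-strand count 15 and 15. The split between higher and lower positions thus moved with replicate 1. Most of the higher light-strand positions had control means under 1 point, so their direction was fixed by the way they were chosen. Many heavy-strand positions, higher and lower, were likewise chosen through a single group.

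Among single tRNAs, all 5 positions of TRNV (tRNA-Val, which also serves as a structural RNA of the mitochondrial ribosome) were higher. Their control means lay between 0 and 0.722 points, so they reached a mean of 1 only through knockout libraries. The direction at these positions was therefore fixed by the way they were chosen. At position 1616 the knockout read 0, 6.25, 8.65 and 0 points and the control 0 in all 4 libraries, so 2 libraries carried the difference of 3.73 points. TRNI (tRNA-Ile) had 3 higher positions. At 4295 and 4296 the control means were 0.286 and 0.295 points, so these too were chosen only through knockout libraries. At 4296 control libraries read 0, 0.549, 0.452 and 0.178 points and knockout libraries 3.80, 0, 2.21 and 1.10. TRNR (tRNA-Arg) had 1 higher and 4 lower positions, with 0 to 3 higher when 1 library was left out and 0 higher without replicate 1 of both groups. Its positions 10408 and 10409 read 2.04 and 2.06 points in control and 1.26 and 1.31 in the knockout over replicates 2 to 4, without overlap, and lay near 0 in replicate 1 of both groups. In TRNP (tRNA-Pro) position 15970 was listed at 0 in all 4 knockout libraries and read 5.26, 0.412, 0.784 and 2.19 points in control, a gap of -2.16 points. Whether the position was read in the knockout is unknown.

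Several of the higher tRNA levels had replicate 1 far from the rest. TRNG (tRNA-Gly) position 10048, the highest of its 5, read 12.1, 1.87, 3.83 and 4.10 points in control and 0, 1.94, 5.91 and 4.26 in the knockout. Control replicate 1 was the highest of the 8 libraries and knockout replicate 1 the lowest, and the difference of -2.45 points became 0.768 points without both. TRND (tRNA-Asp) position 7523 read 7.89, 1.71, 2.14 and 1.35 points in control and 9.52, 1.85, 1.09 and 1.64 in the knockout, with replicate 1 high in both groups. In TRNS1 (tRNA-Ser(UCN), from the light-strand transcript) all 4 positions had higher means in the knockout. Their control means lay between 0.146 and 0.848 points, so this direction too was fixed by the way they were chosen. TRNS1 position 7509 read -1.92, 0.813, 0.706 and 0.986 points in control and 0, 0.346, 5 and 7.66 in the knockout. Knockout replicates 3 and 4 alone were high there. TRNS2 and TRNE, for tRNA-Ser(AGY) and tRNA-Glu, held 1 position each, with differences of 0.529 and 0.587 points and overlapping groups.

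How much of a gene was listed at 0 differed between the groups by RNA class, and this sets what could be compared. Over all tRNA positions 92.7% were at 0 in control replicate 1 and 50.1%, 52.4% and 54.1% in the other control libraries. In the knockout the shares were 92.6% in replicate 1 and 79.1%, 81.8% and 85.3% in the others. Replicates 2 to 4 thus did not overlap. Over mRNA positions the same replicates had 23.7% to 25.5% at 0 in control and 33.9% to 47.4% in the knockout, with 53.5% and 66.6% in the replicates 1. In the 16S rRNA the shares were close, 17.4% to 19.9% in control and 19.6% to 25.1% in the knockout. More positions without a value can come from fewer reads or from fewer mitochondrial RNAs of a class, and these cannot be told apart here.

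**Figure D4:**
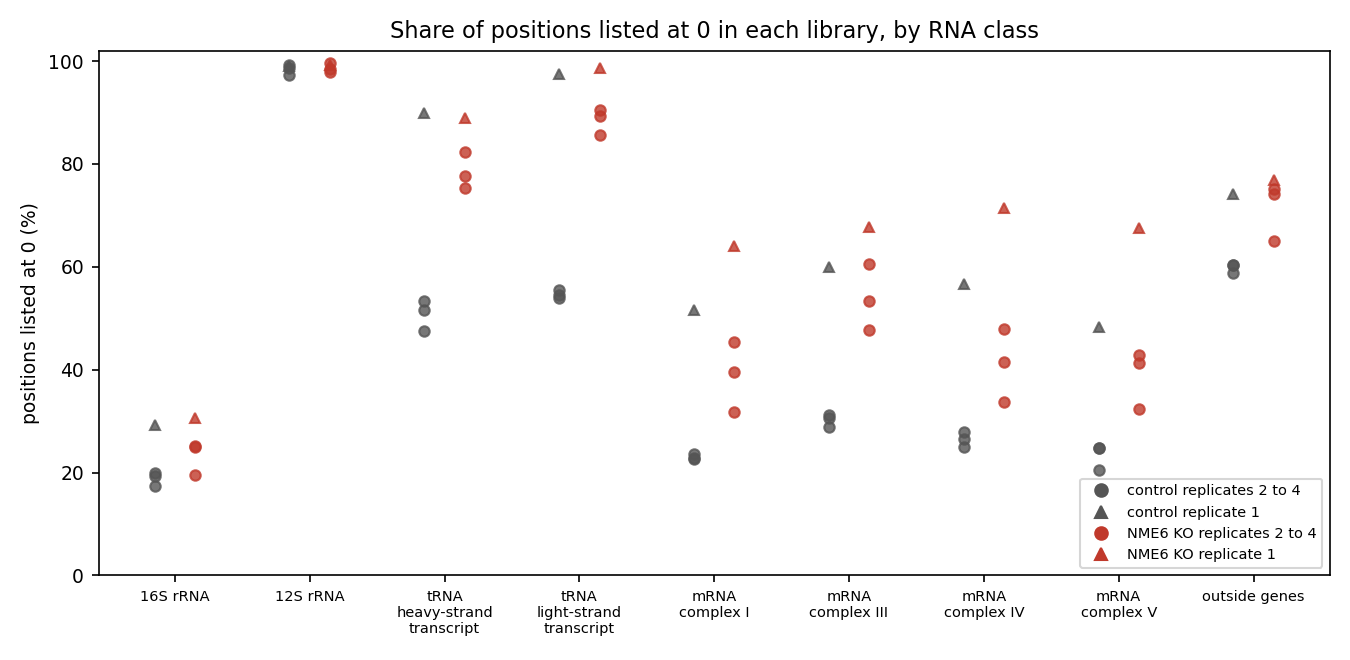
Share of listed positions at exactly 0 (percent) in each of the 8 libraries, by RNA class; grey is control, red NME6 knockout, triangles are replicate 1 and circles replicates 2 to 4. In replicates 2 to 4 the tRNA shares lie between 47.6% and 55.5% in control and between 75.3% and 90.5% in the knockout, and the 16S rRNA shares lie close together.

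Outside genes, the widest gap of all lay in a run of 6 adjacent positions of the control region, 305 to 310. The region holds the light-strand promoter and a cytosine run whose length is known to vary between mitochondrial DNA copies. Position 307 read -9.44, 4.54, 4.16 and 6.25 points in control and -1.34, 18.8, 19.2 and 19.5 in the knockout. Replicate 1 was negative in both groups, and without it the means were 4.98 and 19.2 points with no overlap. Over all 4 libraries the difference was 12.7 points with an SE of 5.28 (95% limits 1.09 and 24.2), a Benjamini-Hochberg adjusted limma p of 0.565 and an exact permutation p of 0.114.

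Position 308 read -7.56, 13.0, 12.7 and 13.4 points in control and -3.88, 22.8, 20.1 and 22.3 in the knockout. Position 309 read -6.57, 11.8, 11.4 and 12.2 points in control and -5.75, 17.6, 15.3 and 16.01 in the knockout. From 306 to 309 the knockout lay above the control in replicates 2 to 4 without overlap, and at 310 the groups overlapped. At position 307 the rescued libraries read 14.1, 12.6 and 3.41 points and the RPUSD4 knockdown libraries -5.29, -7.77 and -15.1. Of the other positions outside genes, 482 to 484 rested on knockout replicate 4 alone, and 494 and 495 were at 0 in every knockout library. Position 16184 read 0.706, 0.986, 1.42 and 1.74 points in control and 2.50, -0.0421, -0.0128 and 0.856 in the knockout, where replicate 1 alone was high. Negative levels mean that untreated RNA carried more signal than CMC-treated RNA, so the level there also reports what was subtracted.

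**Figure D5:**
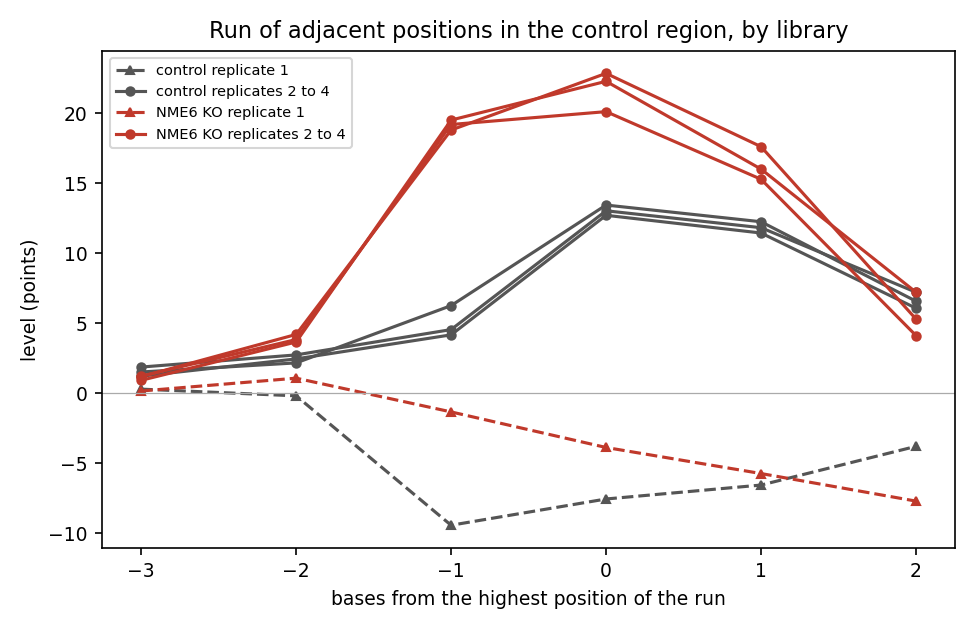
Level in points at 6 adjacent control region positions, by distance in bases from the highest one, in each control (grey) and NME6 knockout (red) library; dashed lines with triangles are replicate 1. Replicate 1 of both groups falls below 0 from 1 base before the highest position onward, and the other knockout libraries lie above the other control libraries from 2 bases before it to 1 base after it.

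Leaving out replicate 1 of both groups changed how many positions separated. Groups of 3 did not overlap at 22 higher (11.6%) and 15 lower positions (7.89%), and none passed the adjusted limma test. The corresponding shares over all 2472 positions above 0 in every library were 8.74% higher and 5.7% lower. In ND5 these were 12831, 13897, 13898, 14012 and 14076, all higher, and both ND6 positions were higher. Neighbouring positions were not independent of each other: 84 of the 190 lay in 39 runs of adjacent positions, and 38 of 45 adjacent pairs differed in the same direction. Counting each run once left 145 stretches. The position just inside the level threshold, ATP8 8497, had a mean of 1.004 points and that just outside, ND3 10080, a mean of 0.998.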

How the data were processed

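The study's 20 samples comprise 14 CMC libraries and 6 untreated libraries, which were not analysed here on their own. Per the submitters' processing notes, Trimmomatic, STAR, SAMtools and the builds GRCh38 and hg38 were used; the calling of levels is not described in what was used here. The values the authors deposited are a signed score per position, per the file headers a difference, with no unit or depth. Positions were assigned to genes with RefSeq coordinates of GRCh38; no mitochondrial sequence was used here.

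Scores were used as deposited. Positions averaging at least 1 over the 8 libraries entered limma 3.58.1 under R 4.3.3: lmFit, then eBayes with trend, two-sided, Benjamini-Hochberg over 190 positions, threshold 0.05. All 14 CMC libraries shared the spread. Exact permutation tests used scipy 1.17.1. This step was first tested on simulated data. Alternatives changed the level filter, variance model, scale, scaling, library weights, samples and replicate block. Named positions were the 10 highest, those without overlap between groups, the highest of each gene and those next to the threshold; others named were chosen after their values were seen. The positions and lists were chosen with earlier results of these data known.

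Deviations of same-numbered libraries correlated at 0.411, 0.239, 0.127 and 0.105 for replicates 1 to 4. Each is above 0.1, so the numbers were tried as a pairing, in the replicate block alternative only. The limma fit as reported and the permutation test left the samples unpaired. With a control library of another number, each knockout library reached at most -0.296, 0.236, 0.0994 and 0.111, so beyond replicate 1 the numbers hardly stood out and knockout replicate 4 matched another number better. That pairing was read from the data, since the labels state none.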

Additional observations from a re-analysis of the deposited data

Results flagged for a closer look

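Of 38 groups of 4 libraries, 17 were marked as holding a library far from the others. The rate of about 1 in 20 for groups marked by chance does not apply to them. Their positions were chosen for height or lack of overlap, and some are adjacent. Groups at 0 in all 4 libraries could not be marked. Most marks fell on replicate 1. The mean level over all positions was 0.0851 points in control replicate 1 and 0.0850 in knockout replicate 1, far below the rest of each group, and 58.9% of positions were listed at 0 in control replicate 1. In the control region, replicate 1 read -9.44 points at 307 in control and -1.34 in the knockout, -7.56 and -3.88 at 308, and -6.57 and -5.75 at 309, each far below the other 3 libraries of its group. At TRND (tRNA-Asp) position 7523, control replicate 1 stood at 7.89 points and knockout replicate 1 at 9.52, far above the others. Control replicate 1 read 33.3 points at TRNF position 588, where the others read 0. COX1 position 6293 read 20.6 points in knockout replicate 1, above the other knockout libraries. COX1 positions 6762 and 6763 read 1.32 and 1.46 points in control replicate 1, below the other control libraries. At ND4 position 11383, control replicate 2 stood high at 1.53 points and knockout replicate 1 low at 0.486 points. The cause of these differences between replicates was not tested.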

How the results depend on the processing

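No position was called in the fit as reported or with 18 of the alternatives, which included each library left out in turn. With no level filter 72 of 14928 positions were called (18 higher, 54 lower; limma, Benjamini-Hochberg), 0 of them among the 190, with a median size of 0.239 points. With a mean of 2 or more 2 were called (COX1 6293 higher, TRNL1 3258 lower), and with only the positions not at 0 in any library, added after seeing the data, 2 (CYTB 15395 higher, TRNL1 3258 lower). With a median of 1 or more 1 was called and with robust empirical Bayes 1, each time CYTB 15395. With the replicate block 0 were called (smallest limma Benjamini-Hochberg adjusted p = 0.380), and this pairing changed no call. The difference turned sign under some alternative at 18 of 44 named positions, none of them called in any fit. Over single omissions it ranged from -0.310 to 1.10 points at RNR2 3067, -1.75 to 1.79 at TRND 7523, -1.05 to 9.06 at control region position 309, -1.26 to 0.677 at TRNI 4300, -0.508 to 0.693 at TRNM 4415, -0.746 to 0.636 at ND2 4586, -0.0697 to 3.24 at TRNA 5631, -0.869 to 4.69 at TRNN 5696, -0.330 to 0.554 at TRNC 5774, -0.132 to 1.31 at TRNK 8307, -0.0723 to 0.263 at ATP8 8496, -0.287 to 0.216 at ATP8 8497, -0.0965 to 0.356 at ATP6 8953, -0.00172 to 0.748 at ND3 10381, -0.241 to 0.258 at ND4L 10576, -0.767 to 0.517 at TRNL2 12306 and -0.226 to 1.28 at TRNP 15962. With replicate 1 of both groups left out it turned to -0.496 at RNR2 3067, 0.768 at TRNG 10048, -0.206 at TRND 7523, 1.297 at ND2 4586, -0.117 at TRNN 5696 and -0.00242 at ATP6 8953. On the signed log2 scale it turned to -0.0255 at TRND 7523, -0.406 at TRNI 4300, -0.00704 at TRNM 4415, 0.00406 at ATP8 8497 and -0.224 at TRNL2 12306. With scaled libraries it turned to -0.256 at TRNI 4300, -0.0594 at TRNK 8307, 0.0384 at ATP8 8497, 0.1004 at ND4L 10576 and -0.181 at TRNL2 12306, and with library weights to 1.47 at ND2 4586, -0.222 at TRNC 5774, 0.00218 at ATP8 8497 and -0.0813 at TRNP 15962. The cause was not tested. Depth is unknown, so whether a position at 0 was read cannot be told.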
